A study of Homo sapiens with 8 samples.

Results

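RNA-seq libraries of Acetalax-resistant cells were set against those of the parental cells of 2 triple-negative breast cancer lines, over 4 matched pairs. The members are all 8 libraries of the series, 4 of CE cells (chronic exposure) and 4 of parental cells, and each CE library was paired with the parental library of the same line and the same treatment. The pairs are MDA-MB468 control, MDA-MB468 Acetalax, BT549 control and BT549 Acetalax, with 1 library per condition. Control cells received no drug, and the Acetalax cells had 1 μmol/L for 6 hours before RNA was collected. The CE cells of both lines had grown in rising Acetalax up to 40 μmol/L and were free of the drug for 2 weeks before use, whereas parental cells had no earlier exposure. The methods call the CE cells resistant clones and describe no more than 1 selection per line, so both pairs of a line carry the same resistant population and are not independent cultures of resistance. Anything else that differs between a CE and a parental culture, such as passage number, cannot be told apart from resistance. A gene was counted as shifted alike when the CE library differed from its parental partner in the same direction in all 4 pairs, and 3761 genes were, of 14027 whose mean level reached 1 CPM (counts scaled to the library total).

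Acetalax (oxyphenisatin acetate) is a diphenolic laxative that kills sensitive breast cancer cells by oncosis, a death in which the cell swells and its membrane gives way. TRPM4, its proposed target, is a channel of the plasma membrane that calcium opens and that lets sodium in. MDA-MB468 is an epithelial, basal-like line, and BT549 is a mesenchymal line with a strong matrix program. Cells that survive a long drug selection can differ from their parents in drug entry and metabolism, in the target, in the death pathway, or in the cell state as a whole, and the gene lists below follow these classes.

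The libraries held from 42261122 to 54241728 counts on genes, with a median of 48064282, and at this depth 1 CPM is at least 42.3 counts. Both lines kept their markers in parental and CE cells. All 10 epithelial markers were higher in every MDA-MB468 library than in any BT549 library, with a summed level of 748 to 1180 FPKM (CPM per kilobase of exon) against 17.8 to 29.0 FPKM. All 10 mesenchymal markers were higher in every BT549 library, and their sum was 666 and 676 FPKM in the parental BT549 libraries and 1570 and 1820 FPKM in the CE ones. Of 16 blood markers, 14 were under 1 FPKM in every library. Their sum moved with CE status in MDA-MB468, from 17.1 to 32.0 FPKM in parental and from 12.6 to 13.7 FPKM in CE libraries, and its part in the results was not tested. In bulk RNA, fewer cells of a kind and less RNA per cell cannot be told apart.

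The gene start regions of a few members are shown because these genes moved together in both lines. The bases are the 250 before the RefSeq start (GRCh38.p14), 5′ to 3′ on the gene's strand, in lower case. Capitals mark an interferon-response motif (2 GAAA half-sites with any 2 bases between them), a TATA box (TATAAA), a GC box (GGGCGG) or an AP-1 motif (TGANTCA), each searched on both strands, and matches of different motifs did not overlap in these 4 regions. NR2F1 (its upstream start) and IL7R were higher in CE cells in all 4 pairs, MMP14 was lower in all 4, and IFIT5 is shown as an interferon-stimulated gene that rose in both lines and holds its motif, which not all of them do.
NR2F1, chr5:93582972-93583221, plus strand: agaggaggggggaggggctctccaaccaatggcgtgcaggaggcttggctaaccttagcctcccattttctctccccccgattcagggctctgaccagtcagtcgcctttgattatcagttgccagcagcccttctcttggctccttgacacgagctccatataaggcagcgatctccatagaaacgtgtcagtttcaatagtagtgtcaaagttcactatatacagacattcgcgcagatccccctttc
IL7R, chr5:35856641-35856890, plus strand: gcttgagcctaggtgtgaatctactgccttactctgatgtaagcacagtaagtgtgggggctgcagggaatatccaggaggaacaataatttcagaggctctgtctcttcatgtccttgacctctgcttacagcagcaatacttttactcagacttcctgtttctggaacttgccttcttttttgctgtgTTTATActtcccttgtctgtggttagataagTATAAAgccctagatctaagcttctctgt
MMP14, chr14:22836335-22836584, plus strand: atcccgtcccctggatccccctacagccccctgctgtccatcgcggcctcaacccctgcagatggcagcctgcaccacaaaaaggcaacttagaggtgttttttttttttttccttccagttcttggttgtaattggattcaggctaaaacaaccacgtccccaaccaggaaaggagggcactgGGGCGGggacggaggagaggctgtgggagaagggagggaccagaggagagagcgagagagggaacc
IFIT5, chr10:89414318-89414567, plus strand: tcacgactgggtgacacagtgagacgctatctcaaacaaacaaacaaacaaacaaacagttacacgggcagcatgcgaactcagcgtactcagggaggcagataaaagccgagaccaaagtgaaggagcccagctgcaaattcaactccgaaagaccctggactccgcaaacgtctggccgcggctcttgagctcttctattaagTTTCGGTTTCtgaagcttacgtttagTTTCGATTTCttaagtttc
The IFIT5 region held 2 interferon-response motifs, IL7R held 2 TATA boxes, MMP14 held 1 GC box, and the upstream start of NR2F1 held none of the 4 motifs, while its other start (chr5:93586849-93587098) held 1 TATA box. The starts of IFI35 and UBE2L6, interferon-stimulated genes that were also higher in all 4 pairs, held GC boxes and no interferon-response motif. Among all 35116 starts of the table, 3.02% held the interferon-response motif, 10.7% the TATA box, 42.6% the GC box and 6.57% the AP-1 motif. Of the 73 genes shifted alike by at least 0.5 in every pair, 47 were in the table. The interferon-response motif was in 2.56% of 39 starts of those that were higher and in 4.0% of 25 starts of those that were lower. COL5A2 and NTN1 are named here without a sequence.

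TRPM4 (chr19:49660998-49715093 in hg19, plus strand) was not lower at the RNA level in CE cells. In MDA-MB468 its level was 7.42 FPKM in parental and 9.11 FPKM in CE control cells, and 7.24 and 8.93 FPKM after Acetalax. In BT549 it was 3.05 and 4.79 FPKM without drug, and 2.18 and 3.11 FPKM after Acetalax. Every CE library was thus above its parental partner, with pair shifts, the difference in log2(FPKM + 1), of 0.26, 0.27, 0.52 and 0.37 in the order MDA-MB468 control, MDA-MB468 Acetalax, BT549 control, BT549 Acetalax, which is kept throughout. Over 4 pairs the fitted log2 fold change was 0.47 (SE 0.13) and did not pass edgeR's quasi-likelihood test (Benjamini-Hochberg adjusted p = 0.227). Within BT549 TRPM4 rose by 0.68 on the log2 scale (SE 0.13, edgeR adjusted p = 0.00811), and within MDA-MB468 its change was 0.26 (SE 0.12, adjusted p = 0.361). The change did not differ between the lines by test (adjusted p = 0.184).

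The fit over 4 pairs, with the pair as a block and 3 residual degrees of freedom, called 12 genes higher (0.0609% of 19693 tested) and 11 lower (0.0559%), in all 23 or 0.117%, with 2915 genes at an unadjusted p under 0.05. Pairs of 1 line share a CE population. These p-values, and all those within a line or for the difference between the lines, thus measure the spread between pairs. They do not measure that between separately derived resistant cells. With counts summed per line, so that the 2 lines were the replicates, edgeR called 0 genes (690 of 20666 at an unadjusted p under 0.05, smallest adjusted p = 0.976). Without the MDA-MB468 control pair the fit over pairs called 10 genes and without any other pair 0, and DESeq2 in place of edgeR called 1010. Of the 23 genes, 8 were shifted alike by at least 0.5 in every pair, among them NR2F1, CTSL, FADS3 and PPP2R2C, which were higher, and MMP14, FN1 and NTN1, which were lower. Another 10 had no more than 20 counts in any library of 1 line: COL6A2, MEG3, MECOM, OR2T8, ITM2A, COLEC12, CTD-2354A18.1 and LEPREL2 were near 0 in MDA-MB468, and OLFM4 and FGFBP1 in BT549. Of these, FGFBP1 was called in its low line too (adjusted p = 0.0378, from 16 and 9 to 5 and 5 counts). AKR1B10, KRT14, P2RX6, AKAP12 and NR2F1-AS1 were the rest. NR2F1-AS1 lies next to NR2F1 on the opposite strand and overlaps it, and the strand used in counting is not given in the sources used here, so reads of the overlap cannot be assigned.

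Shifts of at least 1 in all 4 pairs were rare: 5 of 14027 genes (0.0356%) passed, 3 higher (0.0214%) and 2 lower (0.0143%). With CPM in place of FPKM the number was 25, and with 0.1 added in place of 1 it was 30. The 5 genes were chosen by these shifts, so their levels, and any gap between their CE and parental groups, are a description. The share of all genes with such a gap is not given here. Just inside this limit the smallest of the 4 shifts was 1.06 in size (MMP14), and just outside it 0.90 (TIMP1).

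NR2F1 (chr5:92919043-92930321, plus strand), an orphan nuclear receptor that acts as a transcription factor, had the largest such rise. Its level went from 0.39 FPKM in parental to 3.55 FPKM in CE MDA-MB468 control cells and from 0.827 to 5.49 FPKM after Acetalax. In BT549 it went from 1.21 to 9.89 FPKM without drug and from 0.698 to 3.37 FPKM after Acetalax. All 4 CE levels were above all 4 parental levels, and the pair shifts were 1.71, 1.83, 2.30 and 1.36. The fitted log2 fold change was 2.83 (SE 0.19, edgeR adjusted p = 0.0257), with 2.90 in MDA-MB468 and 2.75 in BT549, a difference between lines that did not pass (adjusted p = 0.828). IL7R (chr5:35852797-35879705, plus strand), the alpha chain of the interleukin-7 receptor, stood at 0.297 and 1.07 FPKM in the parental MDA-MB468 libraries and at 4.48 and 9.36 FPKM in their CE partners. In BT549 its parental levels were 2.90 and 2.05 FPKM and its CE levels 8.47 and 11.5 FPKM. Here too the groups did not overlap. The fitted change of 2.78 (SE 0.37) did not pass over 4 pairs (adjusted p = 0.0767), while it passed in MDA-MB468 (3.44, adjusted p = 0.000903) and in BT549 (2.10, adjusted p = 0.00142).

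COL5A2 (chr2:189896622-190044605, minus strand) encodes a chain of type V collagen, which helps to set the diameter of collagen fibrils. It went from 2.60 to 18.7 FPKM in MDA-MB468 control cells and from 2.79 to 23.1 FPKM after Acetalax. In BT549, where it was already high, it went from 53.4 to 137.0 FPKM and from 74.9 to 211.0 FPKM. The rise on the log2 scale was 2.91 in MDA-MB468 (SE 0.11, edgeR adjusted p = 3.07e-05) and 1.52 in BT549 (SE 0.10, adjusted p = 4.84e-05). It was larger in MDA-MB468 by test (difference of -1.39, adjusted p = 0.000748), and over 4 pairs its adjusted p was 0.0852.

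The 2 genes that were lower by at least 1 in every pair act at the cell surface and in the matrix. NTN1 (chr17:8924859-9147317, plus strand) encodes netrin-1, a secreted guidance cue whose receptors can signal death when it is missing. Its level was 7.12 and 9.13 FPKM in parental MDA-MB468 and 2.45 and 3.40 FPKM in CE cells, and 10.5 and 15.4 FPKM in parental BT549 against 2.77 and 6.52 FPKM in CE cells. The highest CE library (6.52) was below the lowest parental one (7.12). NTN1 fell over 4 pairs by 1.5 on the log2 scale (SE 0.15, edgeR adjusted p = 0.0488). MMP14 (chr14:23305766-23318236, plus strand) encodes a membrane-bound matrix metalloproteinase. It went from 6.14 to 2.42 FPKM and from 5.44 to 1.93 FPKM in MDA-MB468, and from 252.0 to 94.1 FPKM and from 288.0 to 122.0 FPKM in BT549. The groups overlapped across lines because BT549 holds far more of it, but within each line they did not, which the choice by pair shifts nearly ensures. MMP14 fell over 4 pairs by 1.35 (SE 0.11, adjusted p = 0.0272), and the lines did not differ by test (adjusted p = 0.37).

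**Figure D1:**
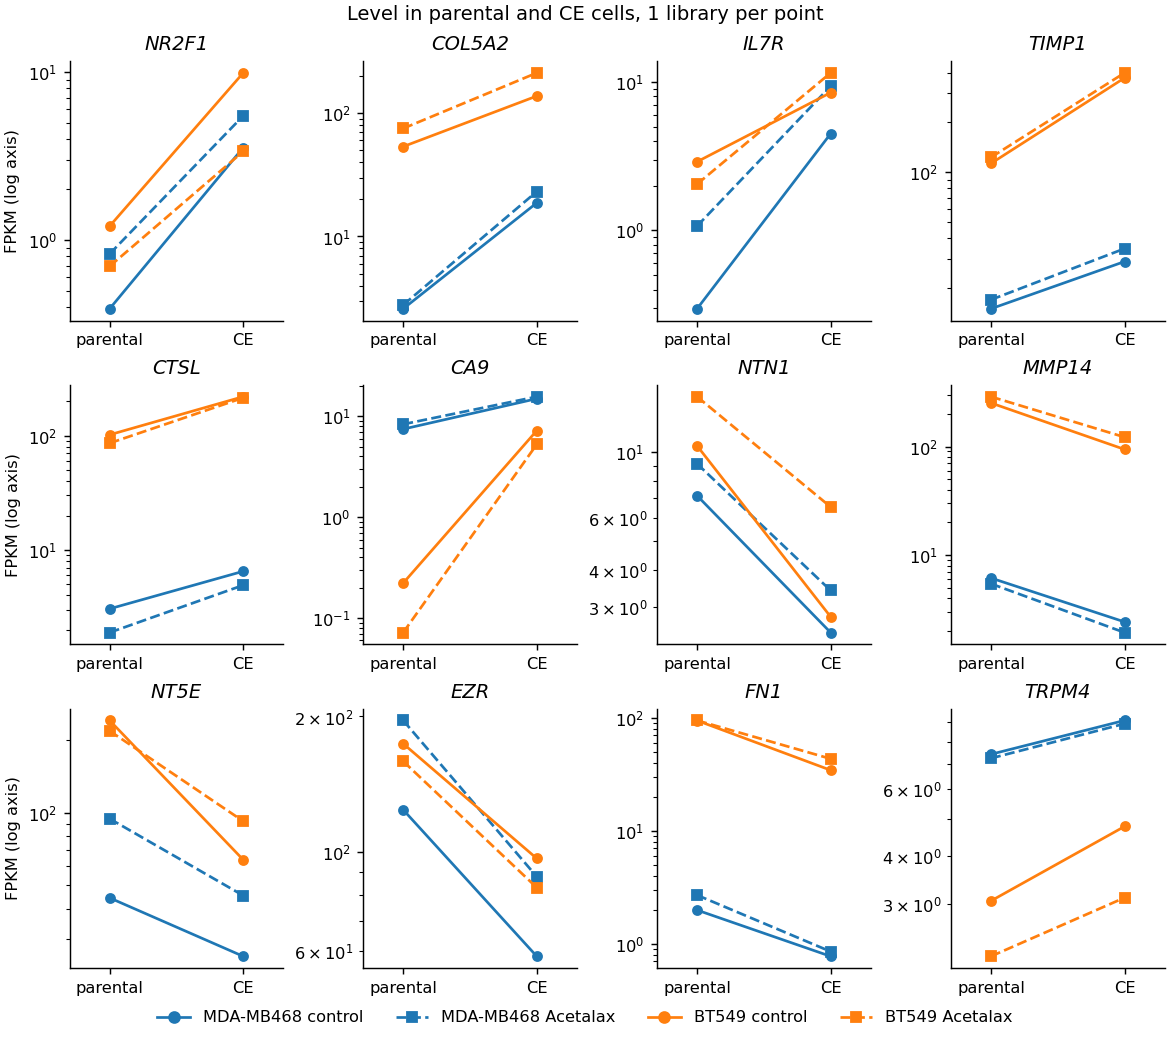
FPKM of 12 genes (log axis) in parental and CE cells; each point is 1 library, each line joins the libraries of 1 pair, colour marks the cell line and marker the treatment. All 4 lines rise for NR2F1, COL5A2, IL7R, TIMP1, CTSL, CA9 and TRPM4 and all 4 fall for NTN1, MMP14, NT5E, EZR and FN1; MMP14 falls from 252.0 to 94.1 FPKM in BT549 control cells.

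At a lower limit of 0.5 in every pair, 44 genes were higher (0.314%) and 29 lower (0.207%), together 73 or 0.52% of 14027. FTH1P11, a copy of a ferritin gene that may share reads with it, was just inside this limit, and GATA2 just outside, both with a smallest shift of 0.50 after rounding. Matrix and protease genes stood among the 12 that were highest by their smallest shift. TIMP1, an inhibitor of metalloproteinases, went from 15 and 17.0 FPKM to 28.9 and 34.6 FPKM in MDA-MB468 and from 113.0 and 123.0 FPKM to 371.0 and 398.0 FPKM in BT549. CTSL, a lysosomal cysteine protease, went from 3.05 and 1.89 FPKM to 6.5 and 4.91 FPKM in MDA-MB468 and from 102.0 and 86.1 FPKM to 220.0 and 215.0 FPKM in BT549. CTSL rose over 4 pairs by 1.25 (SE 0.11, edgeR adjusted p = 0.0327), with nearly the same fitted change of 1.19 and 1.31 in the lines, and TIMP1 rose more in BT549 (1.80) than in MDA-MB468 (0.95, adjusted p of the difference 0.00725). TGFBI, a matrix protein induced by TGF-β, had pair shifts of 1.05, 0.81, 4.09 and 3.86.

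Other genes of this group act in signaling, in the membrane or in the endoplasmic reticulum. WFS1, a membrane protein of the endoplasmic reticulum with a part in calcium balance, rose in MDA-MB468 from 4.75 and 4.66 FPKM to 9.05 and 10.1 FPKM and in BT549 from 6.87 and 5.39 FPKM to 20.5 and 12.9 FPKM. PDLIM1, an actin-bound adaptor, had shifts of 0.89, 0.85, 1.44 and 1.20. CA9, the carbonic anhydrase of hypoxic cells, BMP7, a secreted ligand of the BMP family, and ATP10D, a P4-type ATPase, shared another pattern. They were expressed in MDA-MB468 parental cells (7.44 FPKM for CA9, 3.17 FPKM for BMP7 and 0.874 FPKM for ATP10D in control cells) and had from 2 to 15 counts in the parental BT549 libraries. In CE BT549 control cells their levels were 7.19, 3.08 and 2.68 FPKM, and the line difference passed for each (adjusted p of 0.000276, 0.000264 and 8.43e-05). RAMP1, a partner of receptors of the calcitonin family, was the reverse case: it was low in parental MDA-MB468 (0.215 and 0.0718 FPKM, 12 and 4 counts) and at 1.36 and 1.26 FPKM in CE cells, against 64.9 and 64.4 FPKM in parental and 139.0 and 118.0 FPKM in CE BT549.

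Among the genes that were lower in every pair, FN1, fibronectin of the extracellular matrix, went from 94.6 and 94.8 FPKM to 34.4 and 43.4 FPKM in BT549 and from 1.99 and 2.7 FPKM to 0.776 and 0.855 FPKM in MDA-MB468. It fell over 4 pairs by 1.37 (SE 0.14, edgeR adjusted p = 0.0472). EZR, ezrin, which ties the membrane to the actin cortex, and NT5E, the surface enzyme CD73 that makes adenosine, were abundant in both lines. EZR went from 124.0 and 196.0 FPKM to 58.5 and 88.0 FPKM in MDA-MB468 and from 174.0 and 159.0 FPKM to 96.6 and 83.2 FPKM in BT549. NT5E went from 44.4 and 94.6 FPKM to 25.4 and 45.4 FPKM and from 242.0 and 219.0 FPKM to 63.9 and 92.4 FPKM. Both fell in each line (EZR by 1.16 and 0.80, NT5E by 0.97 and 1.49, edgeR adjusted p of at most 0.0186) and missed the threshold over 4 pairs (adjusted p = 0.0717 and 0.0911). FOXC1, a forkhead factor of basal-like tumors, SYNJ2, an inositol phosphatase, MLLT4, which encodes the junction protein afadin, and PM20D2 were lower by 0.72 to 1.70 in every pair. These 4 genes, EZR and NT5E all lie on chromosome 6. TFPI2, a serine protease inhibitor on chromosome 7, had shifts of -1.41, -1.87, -0.96 and -0.71. SNORD3B-2, also among the 12 lowest, has near-identical copies and is uncertain.

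**Figure D2:**
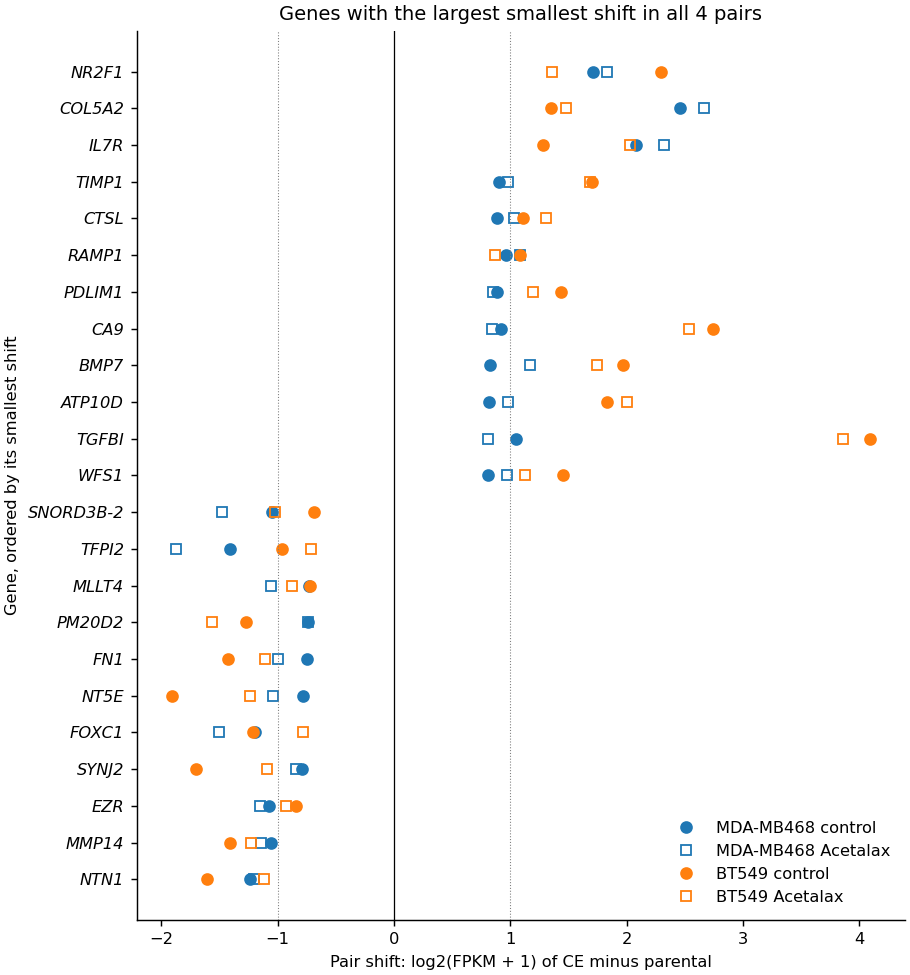
Pair shift, log2(FPKM + 1) of CE minus parental (horizontal axis), of the 12 highest and 11 of the 12 lowest genes by their smallest shift; each point is 1 pair. The 4 points of NR2F1 lie between 1.36 and 2.30 and those of NTN1 between -1.61 and -1.12, while TGFBI spreads from 0.81 to 4.09.

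The lines shared few of their larger changes. Within MDA-MB468 edgeR called 371 genes higher (1.88%) and 499 lower (2.53%), and within BT549 2427 higher (12.3%) and 1983 lower (10.1%), each on 2 pairs, in all 4.42% and 22.4%. The 2 pairs of a line are the control and the Acetalax libraries of the same CE and parental cells. They are not replicates of resistance, which limits these calls and those for the line difference. With 1 of its pairs left out, MDA-MB468 had 409 calls (without control) or 294 (without Acetalax) in place of 870. Both lines had 358 called genes in common, 41.1% of the MDA-MB468 calls and 8.12% of the BT549 calls. Of these, 110 were higher in both lines (0.559% of genes tested), 89 lower in both (0.452%), 55 higher in MDA-MB468 and lower in BT549 (0.279%), and 104 the other way (0.528%). The CE change differed between the lines by test for 2404 genes (12.2%; 7.3% higher and 4.91% lower in BT549 than in MDA-MB468), or 1302 without the MDA-MB468 Acetalax pair. TIMP3, an inhibitor of metalloproteinases bound to the matrix, was the 1 gene with opposite shifts of at least 1 in each pair. It fell in MDA-MB468 from 15.3 and 7.40 FPKM to 3.12 and 1.35 FPKM (log2 change -2.40, adjusted p = 6.87e-05) and was at 0.0206 and 0.0300 FPKM in parental BT549 against 202.0 and 190.0 FPKM in CE BT549. The size of a pair's response also differed: 150 and 218 genes were shifted by at least 1 in the MDA-MB468 pairs and 785 and 692 in the BT549 pairs. Across the 14027 genes the mean shifts of the lines had a Pearson correlation of 0.051, a description over genes, which are not independent replicates.

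**Figure D3:**
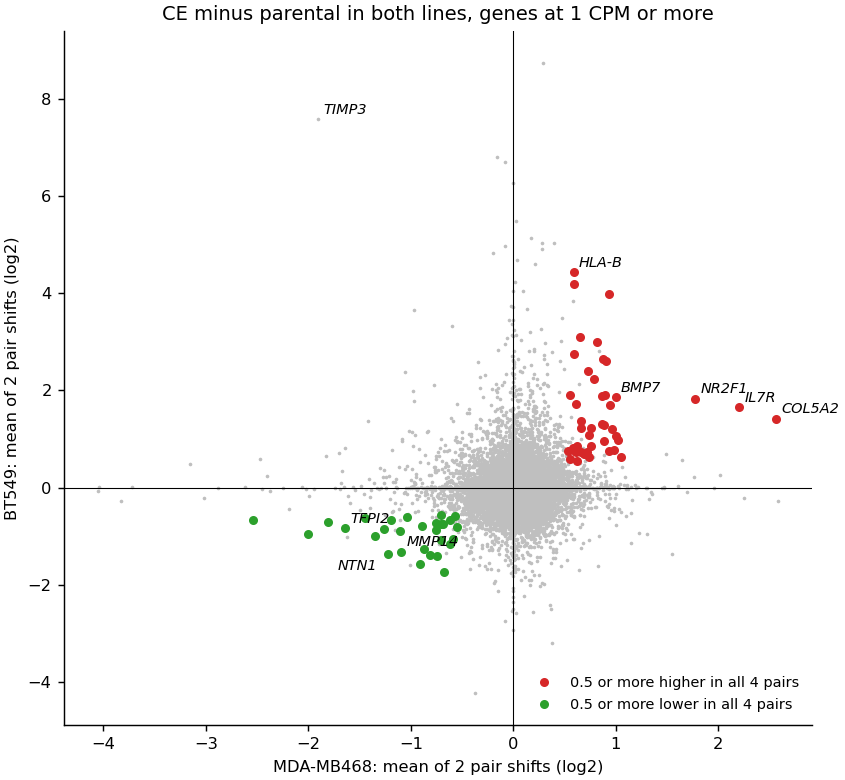
Mean of the 2 pair shifts in MDA-MB468 (horizontal) and in BT549 (vertical) of 14027 genes (log2 units); coloured points are the 44 genes higher and the 29 lower by at least 0.5 in all 4 pairs. NR2F1, IL7R and COL5A2 stand apart at the right, and TIMP3 lies at the upper left; most grey points lie along an axis or near the centre.

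Whether the CE shift differed with Acetalax present could hardly be tested. The edgeR test of treated against control pairs called 0 of 19693 genes, with 57 at an unadjusted p under 0.05, and DESeq2 also called 0, with 27 at an unadjusted p under 0.05, but this fit counts the difference between the lines as spread. With 1 CE term per line, which leaves 1 residual degree of freedom, edgeR and DESeq2 again called 0 genes, with 314 and 65 at an unadjusted p under 0.05. For the 5 genes shifted by at least 1, the treated and the control pair of a line lay farthest apart for NR2F1 in BT549 (1.36 and 2.30).

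Interferon-stimulated genes, the antiviral program that type I interferon and JAK-STAT signaling switch on, were higher in all 4 pairs for 30 of 49 members and lower in all 4 for 1 (against 14.4% and 12.4% of all genes). Their median shift was small in MDA-MB468 (0.13 and 0.11, against 0.02 and 0.04 over all genes) and large in BT549 (2.73 and 2.37, against -0.01 and -0.06). Of 50 tested, 6 rose and 1 fell in MDA-MB468, and 47 rose in BT549, whereas of all genes 1.88% rose and 2.53% fell in MDA-MB468 and 12.3% rose and 10.1% fell in BT549. The change differed between the lines for 41, each larger in BT549, against 7.3% of all genes in that direction. UBE2L6, the conjugating enzyme of ISG15, was already high in parental MDA-MB468 (35.1 and 27.0 FPKM, with 53.5 and 41.0 FPKM in CE cells) and went from 2.89 and 2.40 FPKM to 70.4 and 60.6 FPKM in BT549. IFIT2 and IFIT5, which belong to a family that restricts viral RNA, rose in both lines, IFIT5 from 2.16 and 1.56 FPKM to 3.58 and 3.83 FPKM in MDA-MB468 and from 1.29 and 0.321 FPKM to 14.5 and 4.47 FPKM in BT549. The exception that was lower in every pair, IFNAR1, a chain of the interferon receptor, had shifts of only -0.19, -0.14, -0.01 and -0.01. Of the 22 members of the 30 that were in the start table, 46.9% of 32 starts held the interferon-response motif, and of the 13 other members 73.3% of 15 starts did.

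Genes of MHC class I presentation, which loads peptides for T cells, moved in the same way. Of 15 members, 10 were higher in all 4 pairs (66.7%, against 14.4% of all genes). Of 16 tested, 1 was called higher in MDA-MB468 (6.25%, against 1.88% of all genes) and 14 in BT549 (87.5%, against 12.3%). HLA-B, a class I heavy chain, was at 8.95 and 10.0 FPKM in parental and 14.3 and 15.2 FPKM in CE MDA-MB468 cells, and it rose in this line by 0.60 (SE 0.11, edgeR adjusted p = 0.0277). In BT549 it went from 0.466 and 0.527 FPKM to 29.0 and 34.2 FPKM. Reads of class I genes can be split between similar family members. The immunoproteasome, the form of the proteasome that interferon induces, had 4 of 5 members higher in all 4 pairs (14.4% of all genes were). In BT549 5 of 5 were called higher (12.3% of all genes), against 0 in MDA-MB468 (1.88% of all genes). PSMB9, one of its catalytic subunits, had shifts of 0.46, 0.45, 2.64 and 2.59. The constitutive 20S core had 3 of 13 members higher and 2 lower in all 4 pairs (23.1% and 15.4%, against 14.4% and 12.4% of all genes). Its medians were 0.02, 0.13, -0.02 and -0.08.

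Sterol and fatty acid synthesis genes, which SREBP factors control, were called lower in MDA-MB468 for 16 of 34 (47.1%, against 2.53% of all genes) and higher for 0. In BT549, of 10 fatty acid genes 7 were called higher (70.0%, against 12.3% of all genes) and 0 lower, with medians of 0.65 and 0.45. Of 24 sterol genes, 5 were called higher and 2 lower in BT549 (20.8% and 8.33%, against 12.3% and 10.1%), with medians of 0.10 and 0.01. The medians over the whole list were -0.39 and -0.43 in MDA-MB468. The line difference passed for 20 of 34, each in the direction of BT549, against 7.3% of all genes in that direction. Of the members, 8 were lower in all 4 pairs (23.5%, against 12.4% of all genes) and 2 higher (5.88%, against 14.4%). The 8 were all sterol genes, among them SREBF2, one of these factors (shifts of -0.30, -0.53, -0.35 and -0.31). SREBF2 fell in MDA-MB468 (edgeR adjusted p = 0.0459) and did not pass in BT549 (adjusted p = 0.122).

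Collagen and matrix genes changed in both lines and in both directions. Of 56 tested, 8 rose and 9 fell in MDA-MB468 (14.3% and 16.1%, against 1.88% and 2.53% of all genes). In BT549, 26 rose and 10 fell (46.4% and 17.9%, against 12.3% and 10.1%). Of 52, 14 (26.9%) were higher in all 4 pairs and 2 (3.85%) lower, against 14.4% and 12.4% of all genes. Besides COL5A2, COL4A2 of the basement membrane was higher in every pair (0.62 and 0.482 FPKM to 2.12 and 2.28 FPKM in MDA-MB468, 19.2 and 16.9 FPKM to 31.0 and 26.2 FPKM in BT549) and was called in each line. Of 33 tested mesenchymal and EMT genes, 3 rose and 8 fell in MDA-MB468 (9.09% and 24.2%, against 1.88% and 2.53% of all genes). In BT549, 11 rose and 9 fell (33.3% and 27.3%, against 12.3% and 10.1%). This list had 3 of 31 members higher (9.68%) and 4 lower (12.9%) in all 4 pairs, against 14.4% and 12.4% of all genes. The 4 were FN1, NT5E, MYL9, a myosin light chain, and VIM, vimentin, which went from 256.0 and 273.0 FPKM to 167.0 and 186.0 FPKM in BT549 and from 0.894 and 1.73 FPKM to 0.341 and 0.455 FPKM in MDA-MB468. VIM fell in both lines (log2 changes of -1.71 and -0.50, edgeR adjusted p = 0.000694 and 0.0172). The 3 were TGFBI, the collagen cross-linking enzyme LOXL2 and FAP. The epithelial list was near all genes only in its share shifted alike. In all 4 pairs, 8 of 43 members were higher (18.6%) and 5 lower (11.6%), against 14.4% and 12.4% of all genes. Its share of called genes was larger than that of all genes in both lines and directions. Of 45 tested, 5 rose and 4 fell in MDA-MB468 (11.1% and 8.89%, against 1.88% and 2.53% of all genes). In BT549, 12 genes of the list rose and 9 fell, both larger shares than the 12.3% and 10.1% of all genes. Among its members, the simple keratins KRT8 and KRT18 rose in both lines, KRT18 from 182.0 and 192.0 FPKM to 270.0 and 385.0 FPKM in MDA-MB468 and from 2.17 and 1.36 FPKM to 15.6 and 8.94 FPKM in BT549. KRT8 and KRT18 overlap on opposite strands in the annotation and share this uncertainty with NR2F1-AS1. KRT14, a keratin of basal cells, fell in MDA-MB468 from 25.1 and 28.6 FPKM to 2.26 and 2.61 FPKM and was under 0.3 FPKM in BT549, and the desmosomal cadherin DSC3 fell in both lines, from 7.39 and 6.32 FPKM to 1.61 and 0.926 FPKM in MDA-MB468.

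Glycolysis and hypoxia genes were higher in all 4 pairs for 19 of 43 members (44.2%) and lower for 3 (6.98%), against 14.4% and 12.4% of all genes. In BT549, 26 were called higher and 1 lower (60.5% and 2.33%, against 12.3% and 10.1% of all genes). In MDA-MB468, 2 were called higher and 3 lower (4.65% and 6.98%, against 1.88% and 2.53%). Of the mitosis and G2 genes, 23 of 40 were called lower in BT549 (57.5%, against 10.1% of all genes). In MDA-MB468 0 were (against 2.53% of all genes), and the medians there were -0.01 and 0.34. DNA replication and G1-S genes were lower in all 4 pairs for 19 of 39 members (48.7%, against 12.4% of all genes) and higher for 0. Their medians were small, at -0.07, -0.15, -0.20 and -0.37. Of the 39, 1 was called lower in MDA-MB468 (2.56%, near the 2.53% of all genes) and 11 in BT549 (28.2%, against 10.1%). E2F2, an activator of S-phase genes, had the largest smallest shift of these, with shifts of -0.42, -0.46, -0.36 and -1.12.

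**Figure D4:**
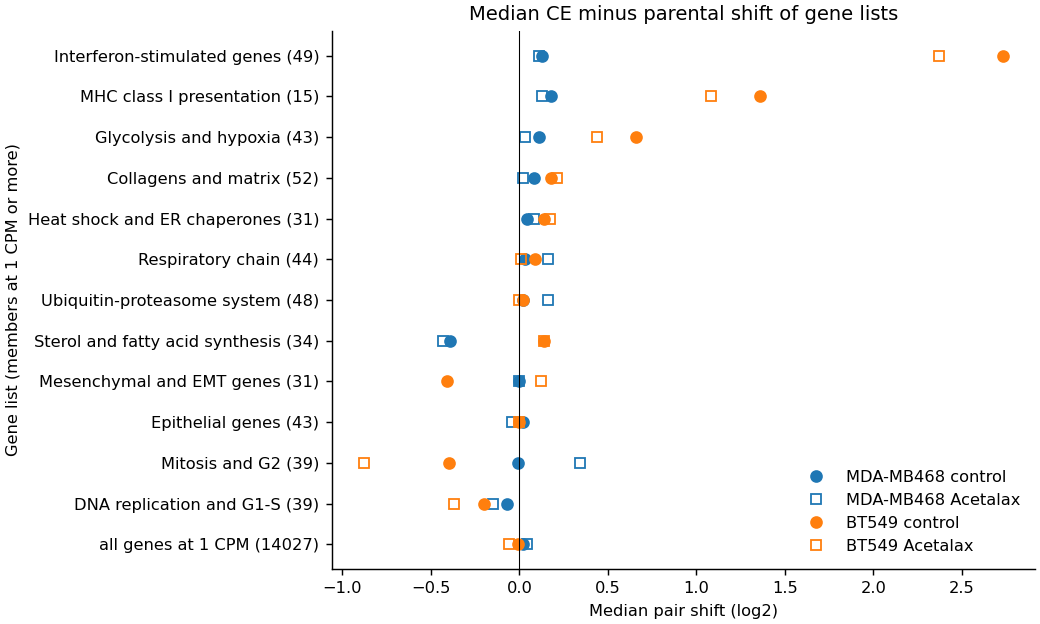
Median pair shift (log2) of 12 gene lists and of all genes; each point is 1 pair, and the number of members at 1 CPM or more stands in parentheses. The interferon-stimulated genes lie at 2.73 and 2.37 in BT549 and near 0.1 in MDA-MB468, and the sterol and fatty acid genes are below 0 in MDA-MB468 and above it in BT549.

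Genes that could act on the drug or on the cell volume were examined as lists. Of all genes, 26.8% had the same sign in all 4 pairs; of the list genes it was 14 of 44 for drug efflux and conjugation (31.8%; 10 higher and 4 lower), 11 of 39 for sodium, chloride and cell volume (28.2%; 4 higher and 7 lower) and 12 of 31 for lytic death and membrane repair (38.7%; 9 higher and 3 lower). Of 50 genes of drug efflux and conjugation, 9 rose and 5 fell in MDA-MB468 (18.0% and 10.0%, against 1.88% and 2.53% of all genes), and 14 rose and 8 fell in BT549 (28.0% and 16%, against 12.3% and 10.1%). The aldo-keto reductases moved in opposite directions. AKR1B10 rose from 19 and 12.7 FPKM to 77.1 and 56.6 FPKM in MDA-MB468 and was at 0.0934 and 0.0778 FPKM against 0.364 and 0.257 FPKM in BT549 (log2 change over 4 pairs 2.01, SE 0.13, edgeR adjusted p = 0.0257). AKR1C1, which has close relatives that may share its reads, went from 7.43 and 5.23 FPKM to 2.67 and 1.79 FPKM in MDA-MB468 and from 0.502 and 0.475 FPKM to 0.0736 and 0.0564 FPKM in BT549. GSTK1, a glutathione transferase, rose in both lines (shifts of 0.49, 0.58, 0.94 and 0.94, adjusted p = 0.0439 and 0.000444). Of 45 genes of the sodium, chloride and volume list, 5 were called higher and 4 lower in MDA-MB468 (11.1% and 8.89%, against 1.88% and 2.53% of all genes). In BT549, 7 were called higher and 7 lower (15.6% each, against 12.3% and 10.1%). ATP1B1, a subunit of the sodium pump, fell in both lines, from 20.3 and 23.7 FPKM to 8.84 and 11.7 FPKM in MDA-MB468 (adjusted p = 0.00183) and from 4.04 and 6.38 FPKM to 2.29 and 3.90 FPKM in BT549 (adjusted p = 0.00533). AQP1, a water channel, rose in MDA-MB468 from 0.952 and 1.42 FPKM to 4.37 and 7.16 FPKM and was under 0.1 FPKM in BT549. Of 34 tested genes of lytic death and membrane repair, 14 were called higher and 2 lower in BT549 (41.2% and 5.88%, against 12.3% and 10.1% of all genes). In MDA-MB468, 1 of these was called higher (2.94%, against 1.88%) and 0 lower. Of 17 tested genes of the BCL2 family, 2 were called higher in BT549 (11.8%, near the share of all genes) and 3 lower (17.6%, against 10.1%). In MDA-MB468, 0 of the 17 were called higher and 1 lower (5.88%, against 2.53%).

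Chromosome 6 held more of the shared falls than its number of genes. Position was not used to choose the genes. Of 694 genes of this chromosome at 1 CPM or more, 300 were lower in all 4 pairs (43.2% against 12.4% of all genes) and 25 higher (3.6% against 14.4%). Its median shift was -0.19, -0.16, -0.17 and -0.20, against 0.02, 0.04, -0.01 and -0.06 over all genes. It held 14 of the 29 genes that were lower by at least 0.5 in every pair (48.3% against 4.95% of genes), among them EZR, SYNJ2, NT5E, FOXC1, PM20D2 and MLLT4, and 1 of the 44 that were higher, HLA-B. Of the 89 genes called lower in both lines, 27 (30.3%) were on chromosome 6. Both arms took part, with 38.9% of 378 genes on the short arm and 48.4% of 316 on the long arm lower in all 4 pairs. Each chromosome was also cut into runs of 50 neighbouring genes, 279 in all. A median of -0.3 or lower in all 4 pairs was found for 0 runs. A median of 0.1 or higher in all 4 pairs was found for 2 runs, on chromosomes 11 and X. At a second lower limit of -0.1, 9 runs passed in all 4 pairs, and all 9 were among the 14 of chromosome 6. The run at the end of its long arm (chr6:157099063-170893780) was lowest in MDA-MB468, with medians of -0.57 and -0.52 against -0.22 and -0.21 in BT549. Of the 694 genes, 96 fell and 3 rose in MDA-MB468 (13.8% and 0.432%, against 3.11% and 2.31% of the 14027 genes), and 137 fell and 72 rose in BT549 (19.7% and 10.4%, against 12.3% and 15.9%), with HLA-B among those that rose. By test, the lines differed for 127 of them (18.3%, against 16% of the 14027 genes).

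**Figure D5:**
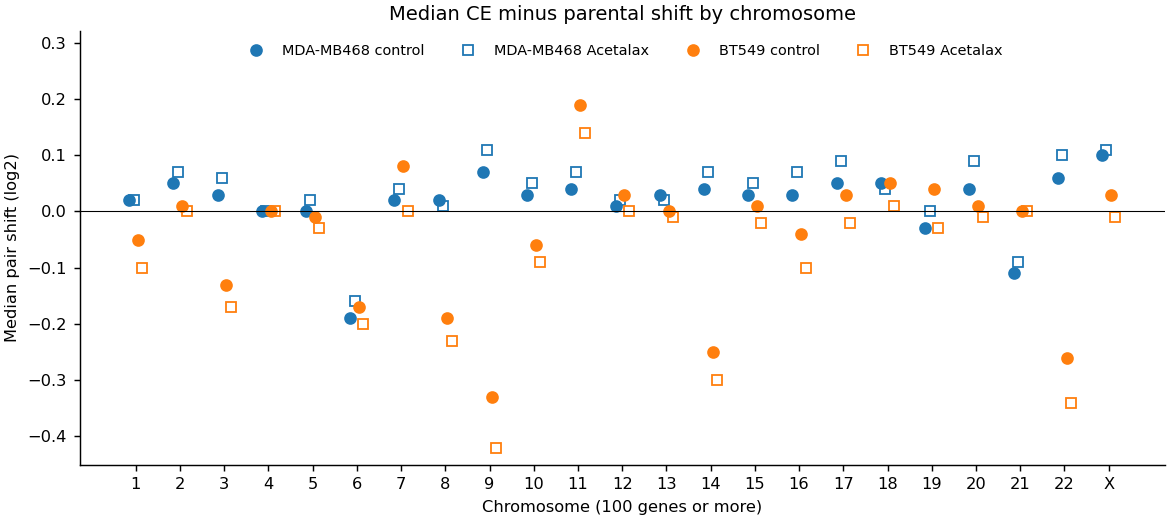
Median pair shift (log2) of the genes of each chromosome with at least 100 genes at 1 CPM or more; each point is 1 pair. Chromosome 6 is below -0.15 in all 4 pairs, whereas chromosomes 9, 14 and 22 are below 0 in the BT549 pairs and above it in the MDA-MB468 pairs, and chromosome 21 is below 0 in the MDA-MB468 pairs and at 0 in the BT549 pairs.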

How the data were processed

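The 8 libraries were sequenced after poly(A) selection as the study describes; STAR (2.7.11b in the submitters' processing notes) placed the reads on hg19, and what the authors deposited are its raw read counts for each gene, not normalized. The annotation and strand setting are not given in the sources used here. The deposited count table had 58154 rows for 55679 gene identifiers; the 1392 listed more than 1 time were kept once, 28 symbols turned into dates were restored, and exon lengths came from a GENCODE annotation on hg19. Groups came from the labels. Totals ranged from 42261122 to 54241728 counts, which sets the counting error, and 1 library per condition leaves no replicate of a culture.

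From the counts, FPKM, CPM and pair shifts, log2(FPKM + 1) of CE minus parental, were computed; a mean of 1 CPM over the libraries was the minimum for describing a gene. Tests used edgeR 4.0.16 in R 4.3.3 (TMM, filterByExpr, quasi-likelihood, Benjamini-Hochberg adjustment over 19693 genes, threshold 0.05) with the pair, set by line and treatment in the labels, as a block, and 1 CE term or 1 per line (2 residual degrees of freedom). The scripts were tested on simulated data with known changes. The simulated spread was that of the fit with 1 CE term per line (edgeR dispersion 0.0184). The 4-pair fit had a larger one (0.0745), so its calls were not tested under their own spread. DESeq2 1.42.0, other scalings, filters, pseudocounts and left-out pairs were the alternatives. Members and lists were chosen with earlier results of these data known. Named genes were the 12 highest and the 12 lowest by the smallest of the 4 shifts, TRPM4, up to 4 per list and direction, opposite genes and line markers; the called genes, GATA2 and FTH1P11 were added after their values were seen. Some genes that the rule takes are not reported here. Of 1111 list genes, 1103 were found.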

Additional observations from a re-analysis of the deposited data

Results flagged for a closer look

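For 28 of the genes named above, 11 of them among those with the largest shared or opposite shifts, the CE change differed between the lines by the test of the difference itself. On the log2 scale, BT549 minus MDA-MB468, the edgeR value for these 11 was 0.85 for TIMP1, 0.61 for PDLIM1, 4.59 for CA9, 5.62 for BMP7, 5.33 for ATP10D, 3.07 for TGFBI and 1.28 for TFPI2, whose fall was smaller in BT549. It was -1.39 for COL5A2, which rose more in MDA-MB468, and -0.82 for PM20D2, which fell more in BT549. For RAMP1 it was -2.07, a larger fitted rise in MDA-MB468, where the parental libraries held 12 and 4 counts. The pair shifts of RAMP1 were alike in the lines (0.96 and 1.08 in MDA-MB468, 1.08 and 0.87 in BT549). The adjusted p of these ran from 3.45e-05 (TGFBI) to 0.0488 (PDLIM1). For TIMP3, with opposite directions in the lines, it was 15.38 (adjusted p = 8.73e-08), a fitted value that depends on the prior count because the gene was near 0 in parental BT549. The fitted values of CA9, BMP7 and ATP10D carry the same limit. Of the list genes described above, the change was larger in BT549 for HLA-B (5.48), KRT8 (4.23), UBE2L6 (4.16), PSMB9 (2.86), IFIT5 (2.73), KRT18 (2.12), IFIT2 (1.61), PDIA4 (1.42), S100A6 (1.22) and GSTK1 (0.6). The value was -1.27 for AKR1C1 and -1.54 for DSC3, whose fitted fall was larger in BT549. Their levels were lower in BT549, and their pair shifts there were smaller in size (-0.48 and -0.48 for AKR1C1, -0.82 and -0.59 for DSC3). In MDA-MB468 the pair shifts were -1.20 and -1.16 for AKR1C1 and -1.68 and -1.93 for DSC3. The fitted value was 1.22 for VIM and 3.02 for MYL9, which fell in MDA-MB468 and changed less in BT549. It was -1.21 for COL4A2, -1.5 for FAP and -1.69 for AQP1, which rose in MDA-MB468 and changed less in BT549. The adjusted p of these 17 ran from 3.76e-06 (HLA-B and KRT8) to 0.0467 (AQP1). All of these genes but TIMP3 had 4 pair shifts of 1 sign, but some were called in only 1 line. In edgeR, MYL9 and AQP1 did not pass in BT549 (adjusted p = 0.0703 and 0.377). PSMB9 and S100A6 did not pass in MDA-MB468 (edgeR adjusted p = 0.119 and 0.0789).

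P2RX6, which encodes an ATP-gated ion channel subunit, had 1 pair far from the others: its shift was 0.69 in the BT549 control pair and 0.16 to 0.24 in the other 3. P2RX6 was at 0.652 FPKM or less in every library. E2F2 had 1 such pair as well, with a shift of -1.12 in the BT549 Acetalax pair and of -0.36 to -0.46 in the other 3. Chance flags about 1 in 20 groups of this kind.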

How the results depend on the processing

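The number of genes called over 4 pairs (23) depended strongly on the model. It was 1010 with DESeq2, 446 with every gene of at least 1 count, 76 with line and treatment as additive terms, and 0 with no replicate block, with the control pairs only, with the Acetalax pairs only and with counts summed per line. Without 1 pair it ran from 0 (without MDA-MB468 Acetalax or either BT549 pair) to 10 (without MDA-MB468 control). Of the 23 genes, 18 were called by DESeq2 and 19 with DESeq2's size factors in edgeR, where 19 genes were called in all. Without the pair as a block, 363 genes had an unadjusted p under 0.05; the pairing comes from the labels' line and treatment. Calls in MDA-MB468 (870) became 1817 with every gene of at least 1 count, and 409 and 294 with 1 of its pairs left out (control, Acetalax), where the lone pair is assumed to vary like the BT549 pairs. The line difference (2404) was 3533 with every gene of at least 1 count, and from 1302 (without MDA-MB468 Acetalax) to 2906 (without BT549 control) with a pair left out. Calls in BT549 stayed within 1.5 times of 4410, at 3466 and 3462 with a pair left out. Genes shifted by at least 1 in every pair (5) became 25 with CPM, 30 with a pseudocount of 0.1 and 10 with 0.5, and ran from 7 to 12 with a pair left out; at 0.5 (73) the numbers were 161, 200, 115 and 92 to 137. The relative median of chromosome 6 moved from -0.17 to -0.23 with CPM and -0.24 with a pseudocount of 0.1. No result changed direction. The limit of 0.5, the Acetalax fit with 1 CE term per line, and the chromosome and interferon alternatives were chosen after seeing the data. With 1 library per condition, counting error is small beside culture differences, which were not measured.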

Other observations

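Some further genes, chosen after their values were seen, also shifted alike. SLCO2A1, a prostaglandin transporter, SECTM1, a secreted and membrane protein, and the proteoglycan GPC1 were among the 44 genes higher by at least 0.5 in all 4 pairs, and SDC2, another proteoglycan, and NOV, a matricellular protein, were among the 29 that were lower. The S100 proteins, small calcium-binding proteins, were part of the calcium list, of which 12 of 46 members were higher in all 4 pairs (26.1%, against 14.4% of all genes) and 1 was lower (2.17%, against 12.4%). Of 49 tested, 15 were called higher and 4 lower in BT549 (30.6% and 8.16%, against 12.3% and 10.1%), and 4 higher and 2 lower in MDA-MB468 (8.16% and 4.08%, against 1.88% and 2.53%). S100A3 went from 9.66 and 10.4 FPKM to 17.1 and 18.2 FPKM in MDA-MB468 and from 0.478 and 0.301 FPKM to 1.40 and 1.60 FPKM in BT549. S100A6 went from 738.0 and 729.0 FPKM to 928.0 and 953.0 FPKM in MDA-MB468 and from 280.0 and 272.0 FPKM to 744.0 and 759.0 FPKM in BT549. S100A6 rose in BT549 (edgeR adjusted p = 2e-05) and missed the threshold in MDA-MB468 (adjusted p = 0.0789).

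Chaperones of the endoplasmic reticulum were higher in all 4 pairs for 10 of 18 members (55.6%, against 14.4% of all genes) and lower for 0. In BT549 11 were called higher (61.1%, against 12.3% of all genes), and in MDA-MB468 0 were (against 1.88%). PDIA4, a disulfide isomerase, had shifts of 0.19, 0.37, 1.49 and 1.62. The nuclear-encoded genes of the respiratory chain were higher in all 4 pairs for 14 of 31 members (45.2%, against 14.4% of all genes). Their medians were 0.05, 0.13, 0.22 and 0.18. Those of the mitochondrial genome had medians of 0.03 and 0.21 in MDA-MB468 and of -0.38 and -0.82 in BT549. In BT549, 9 of these 13 were called lower (69.2%, against 10.1% of all genes).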
